A study of Mus musculus with 23 samples.

Results

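The suppressors of cytokine signaling, or SOCS family, are 8 intracellular proteins, SOCS1 to SOCS7 and CIS, and the 8 mouse genes that encode them (*Socs1* to *Socs7* and *Cish*) were followed here in bone marrow-derived macrophages (BMDM) treated with lipopolysaccharide (LPS). The genes were chosen by name: every array probe whose annotated transcript maps to one of these symbols was taken, which gave 11 probes for 8 of the 25,998 genes tested. *Socs2* had 3 probes, *Socs6* had 2 and the other 6 genes had 1 each. Where a gene had several probes, the values given are those of the probe with the highest induction by LPS in wt BMDM, and the others are named as further probes.

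The study asked how the kinases MK2 and MK3, which act downstream of p38 MAPK, shape the early macrophage response to LPS. Bone marrow of male mice was grown for 9 days under M-CSF at 10 ng/ml, and the resulting macrophages were kept in medium or given 100 ng/ml LPS, for 120 min in either case. The mice were wild type (wt, 12 to 13 weeks old), lacked MK2 (MK2-/-, 10 to 13 weeks) or lacked both MK2 and MK3 (MK2/3-/-, 11 to 14 weeks). The labels give the strain as C57BL/6, and the methods name C57BL/6J for the deficient lines. Total RNA was labelled with Cy3 and hybridized to 23 one-colour Agilent arrays, 4 for each of the 6 combinations of genotype and treatment except MK2-/- BMDM in medium, which had 3.

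Many cytokines act through receptors that carry JAK kinases, which phosphorylate STAT transcription factors, and several SOCS genes are themselves STAT targets, so that their proteins close a negative feedback loop. All 8 proteins have an SH2 domain that binds phosphorylated tyrosine and a C-terminal SOCS box that recruits a ubiquitin ligase built on elongin and cullin proteins. In macrophages the family is best known for SOCS1, which restrains interferon signaling and protects against excessive responses to LPS, and for SOCS3, which restrains signaling by IL-6.

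Signals are given as log2 of the normalized spot signal in arbitrary units, so a difference of 1 is a doubling. Well above background means that the scanner software marked the spot so. The share of probes that were well above background had a median of 58.2% in wt BMDM in medium and 57.7% after LPS, 54.8% and 50.3% in MK2-/- BMDM, and 55.1% and 50.8% in MK2/3-/- BMDM. Within the last group in medium it ran from 47.5% on array 1 to 69.1% on array 2, beyond the other 21 arrays on either side, and array 2 was also 1 of 2 arrays for which the headers hold no fit of the signal gradient. Results that involve MK2/3-/- BMDM in medium are therefore also given without these 2 arrays where that changes them. Each genotype was hybridized on a slide of its own, so differences between genotypes cannot be told apart from differences between slides. LPS was compared with medium within a slide, on which the treatments lay in separate columns.

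Of 9 macrophage marker genes listed, 8 were measured, and all 8 were well above background on all 23 arrays, with *Csf1r*, the receptor of M-CSF, at the highest mean signal. Of the T cell markers *Cd3d* and *Cd8a*, the basophil and mast cell marker *Fcer1a* and the erythroid marker *Hbb-bt*, none was well above background on any array. Other genes listed as markers of neutrophils, T cells, B cells, NK cells and stromal cells, among them *Elane*, *Cd3e*, *Cd79b*, *Prf1* and *Col1a2*, were well above background on all 23 arrays. Whether such cells were present cannot be told from these genes alone. The targeted genes followed the labels. *Mapkapk2*, which encodes MK2, was lower than in wt BMDM by 2.81 in MK2-/- and by 3.01 in MK2/3-/- BMDM after LPS (adjusted p 2.4e-05 and 2.59e-06), and *Mapkapk3*, which encodes MK3, differed between MK2/3-/- and MK2-/- BMDM by −3.27 after LPS and −1.86 in medium (adjusted p 1.35e-09 and 2.83e-05). With the t-test the *Mapkapk2* differences and the *Mapkapk3* difference in medium had adjusted p values of 0.137, 0.118 and 0.259. With only the groups compared in the fit the *Mapkapk2* difference in MK2-/- BMDM had 0.0738 and the *Mapkapk3* difference in medium 0.118, and under the other settings these differences had adjusted p values down to 6.85e-06, 7.48e-07 and 1.93e-06.

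The first comparison asked which family members respond to LPS in each genotype. At a p adjusted over all genes under 0.05, 6 of 8 members were higher with LPS in wt BMDM, against 8.26% of all genes, and 0 were lower, against 8.89%. In MK2-/- BMDM 6 members were higher, against 8.5% of all genes, and 0 lower, against 10.1%. In MK2/3-/- BMDM 7 members were higher, against 11.9% of all genes, and 0 lower, against 13%. For genes with several probes, choosing the probe by its LPS difference in wt BMDM tilts these counts toward higher. The 6 members called in wt BMDM had 1 probe each. In a fit over all probes the further probe of *Socs6* was lower in wt BMDM (−1.10, adjusted p 0.0406). The further probes of *Socs2* did not pass in MK2/3-/- BMDM. At an unadjusted p under 0.05 the counts were 6, 6 and 7 members in both directions together, against 26.8%, 29.0% and 34.5% of all genes. A t-test with adjusted p called 4, 6 and 6 members, against 11.6%, 14.5% and 18.0% of all genes. The median log2 difference over the 8 members in the 3 genotypes was 1.05, 1.43 and 1.78, beside medians over all genes of 0.00, −0.01 and −0.02. The members fell into 3 that rose by more than 7 log2 units (*Socs1*, *Socs3* and *Cish*), 3 that rose by between 0.81 and 1.73 (*Socs4*, *Socs5* and *Socs7*), and 2 with small or uneven differences (*Socs2* and *Socs6*).

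*Socs1* encodes the member that binds and inhibits JAK kinases directly. Its log2 signal in wt BMDM was 6.18, 6.74, 5.74 and 4.86 on the 4 arrays in medium and 13.29, 14.21, 13.90 and 12.02 on the 4 after LPS. In MK2-/- BMDM it was 6.40, 6.39 and 5.55 in medium and 13.32, 13.52, 13.17 and 12.87 after LPS. In MK2/3-/- BMDM it was 6.37, 7.11, 5.59 and 6.04 in medium and 15.00, 15.36, 14.96 and 13.31 after LPS. Every LPS array lay far above every medium array, the medium arrays of the 3 genotypes overlapped, and the fourth LPS array was the lowest of its group in each genotype. *Socs1* rose by 7.48 in wt BMDM, or 178-fold (95% confidence interval of the log2 difference 6.43 to 8.52, adjusted p 1.75e-09), by 7.11 or 138-fold in MK2-/- (5.98 to 8.23, 1.13e-08) and by 8.38 or 333-fold in MK2/3-/- BMDM (7.34 to 9.42, 3.2e-10). With normexp background correction the 3 differences were 6.37, 6.15 and 7.57. The exact two-sided permutation test gave p = 0.0286 in each genotype, the smallest value that 4 arrays against 4, or 4 against 3, can give.

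*Socs3* encodes the inhibitor of gp130 receptors, which also blocks JAK kinases. In wt BMDM its log2 signal was 9.97, 9.57, 9.12 and 9.15 in medium and 17.31, 17.72, 17.41 and 16.77 after LPS. In MK2-/- BMDM it was 10.03, 9.73 and 9.80 in medium and 17.15, 17.52, 16.85 and 17.04 after LPS. In MK2/3-/- BMDM it was 10.13, 9.77, 9.29 and 10.10 in medium and 17.86, 17.79, 17.62 and 16.90 after LPS. Again no LPS array overlapped a medium array, the spread within groups was narrower than for *Socs1* except in MK2-/- BMDM after LPS, and the genotypes overlapped within each treatment. *Socs3* rose by 7.85 in wt BMDM, or 231-fold (95% confidence interval 7.31 to 8.39, adjusted p 7.98e-14), by 7.28 or 156-fold in MK2-/- (6.70 to 7.86, 1.56e-12) and by 7.72 or 211-fold in MK2/3-/- BMDM (7.19 to 8.26, 1.34e-13), each with an exact permutation p of 0.0286.

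*Cish* encodes CIS, the founding member, which binds cytokine receptors that activate STAT5. Its log2 signal in wt BMDM was 6.34, 4.53, 5.26 and 5.91 in medium and 13.61, 14.43, 13.78 and 12.93 after LPS. In MK2-/- BMDM it was 6.23, 4.08 and 5.74 in medium and 13.52, 14.06, 13.69 and 12.77 after LPS. In MK2/3-/- BMDM it was 2.47, 4.80, 3.79 and 4.60 in medium and 13.84, 14.25, 13.95 and 12.07 after LPS. The LPS arrays of the 3 genotypes lay in one range, while the medium arrays were near the lower end of the scale. The spot was well above background on all LPS arrays, and in medium it was so on all 4 wt arrays, on 2 of 3 MK2-/- arrays and on 2 of the 4 from MK2/3-/- BMDM. *Cish* rose by 8.18 in wt BMDM, or 289-fold (95% confidence interval 6.95 to 9.40, adjusted p 4.79e-09), by 8.16 or 286-fold in MK2-/- (6.84 to 9.49, 1.56e-08) and by 9.61 or 784-fold in MK2/3-/- BMDM (8.39 to 10.84, 4.44e-10), with an exact permutation p of 0.0286 in each. With the 1 MK2/3-/- medium array that lay under the lowest signal well above background raised to that signal, the difference there was 9.21, or 594-fold. With normexp background correction, which adds an offset of 50 to the spot signals, the 3 differences were 6.79, 6.72 and 7.04.

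**Figure D1:**
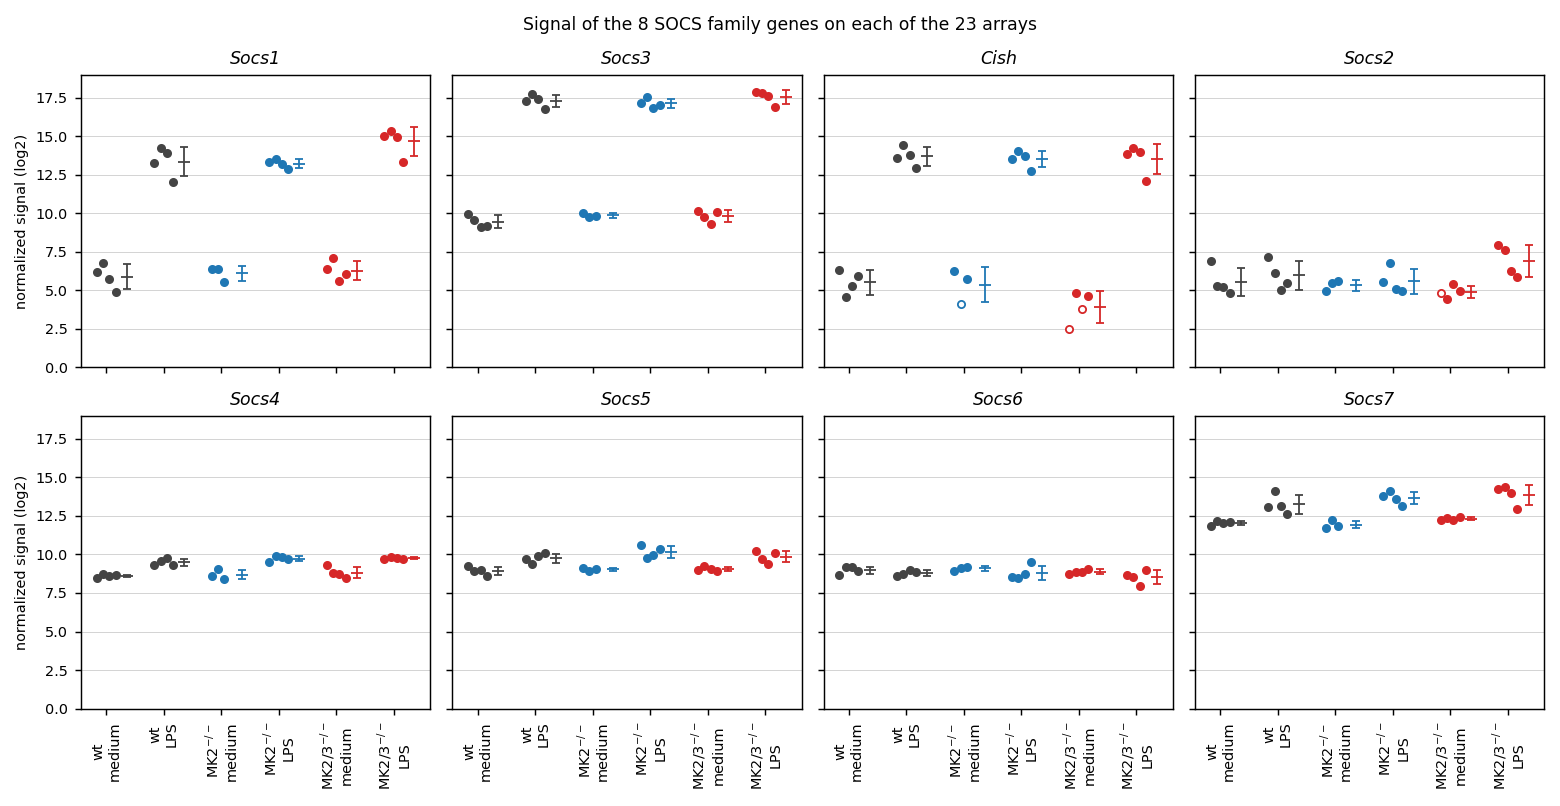
Normalized log2 signal of each of the 8 genes (panels) on each array, by genotype and treatment (columns). Each point is an array, open where the spot was not well above background, and the bar beside the points is the mean with its SD. For *Socs1*, *Socs3* and *Cish* the LPS arrays lie apart from the medium arrays in all 3 genotypes.

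*Socs7*, *Socs4* and *Socs5*, like *Socs6*, encode members with long N-terminal regions, and SOCS4 and SOCS5 have been described as regulators of the EGF receptor. The log2 signal of *Socs7* was 11.84, 12.15, 12.05 and 12.12 in wt BMDM in medium and 13.08, 14.11, 13.17 and 12.63 after LPS. In MK2-/- BMDM it was 11.74, 12.21 and 11.86, then 13.78, 14.13, 13.62 and 13.13 after LPS. In MK2/3-/- BMDM it was 12.26, 12.39, 12.27 and 12.41, then 14.24, 14.36, 13.99 and 12.95 after LPS. Medium arrays were tight and lay below all LPS arrays of their genotype, and the fourth LPS array was again the lowest of each group. *Socs7* rose by 1.21 in wt BMDM, or 2.31-fold (95% confidence interval 0.59 to 1.83, adjusted p 0.00635), by 1.73 or 3.31-fold in MK2-/- (1.06 to 2.39, 0.000546) and by 1.55 or 2.93-fold in MK2/3-/- BMDM (0.93 to 2.17, 0.000527). With the t-test the wt difference had an adjusted p of 0.0645, and over all alternatives it ran from 0.00188 to 0.0645.

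*Socs4* had log2 signals between 8.43 and 9.31 on the 11 medium arrays and between 9.30 and 9.89 on the 12 LPS arrays, with MK2/3-/- medium array 1 the highest of the medium arrays. Within each genotype its LPS arrays lay above its medium arrays. In wt, MK2-/- and MK2/3-/- BMDM *Socs4* rose by 0.89, 1.03 and 0.94, which is 1.85-, 2.04- and 1.92-fold, with adjusted p values of 0.00064, 0.000305 and 0.000256. *Socs5* had log2 signals between 8.61 and 9.25 in medium and between 9.37 and 10.63 after LPS, with no overlap in any genotype. It rose by 0.82, 1.14 and 0.81, which is 1.76-, 2.21- and 1.75-fold, with adjusted p values of 0.00836, 0.00096 and 0.00626. With the t-test the wt difference of *Socs5* had an adjusted p of 0.0544, in a range of 0.00313 to 0.0544 over all alternatives. For *Socs4*, *Socs5* and *Socs7* the exact permutation p was 0.0286 in each of the 3 genotypes.

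*Socs2* encodes the regulator of growth hormone signaling. The probe used gave log2 signals in wt BMDM of 6.88, 5.28, 5.22 and 4.84 in medium and 7.15, 6.14, 5.03 and 5.50 after LPS. In MK2-/- BMDM it gave 4.93, 5.44 and 5.60 in medium and 5.54, 6.75, 5.07 and 4.97 after LPS. In MK2/3-/- BMDM it gave 4.83, 4.46, 5.39 and 4.92 in medium and 7.92, 7.59, 6.25 and 5.84 after LPS. Medium and LPS arrays overlapped in wt BMDM, where array 1 was the highest under both treatments, and in MK2-/- BMDM, where LPS array 2 stood above the rest, but not in MK2/3-/- BMDM. *Socs2* rose by 2.00 in MK2/3-/- BMDM, or 4.00-fold (95% confidence interval 0.87 to 3.13, adjusted p 0.00895, exact permutation p 0.0286). The LPS difference was 0.40 in wt BMDM (−0.73 to 1.53, adjusted p 0.735) and 0.25 in MK2-/- BMDM (−0.96 to 1.47, adjusted p 0.856). With each array left out in turn it ran from 0.002 to 0.84 in wt BMDM, and in MK2-/- BMDM it was −0.13 without LPS array 2. The further probes of *Socs2* gave LPS differences in MK2/3-/- BMDM of 1.08 and 0.83 (adjusted p 0.162 and 0.239), in MK2-/- BMDM of −0.06 and −0.16 (0.971 and 0.905) and in wt BMDM of 0.15 and 0.09 (0.926 and 0.959). The mean of the 3 probes rose by 1.30 in MK2/3-/- BMDM with an adjusted p of 0.0661. The value of the probe used had an adjusted p of 0.0538 with the t-test and 0.0802 (difference 1.74) without MK2/3-/- medium arrays 1 and 2, and the difference was 0.87 with an adjusted p of 0.0193 with normexp correction. Over all alternatives its adjusted p ran from 0.00245 to 0.163.

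*Socs6* encodes a member linked to the degradation of receptor tyrosine kinases. Its log2 signal was between 8.69 and 9.21 in medium and between 7.96 and 9.48 after LPS, and medium and LPS arrays overlapped in every genotype. The LPS differences of −0.19, −0.28 and −0.35 in wt, MK2-/- and MK2/3-/- BMDM had adjusted p values of 0.663, 0.485 and 0.269 (exact permutation p 0.229, 0.343 and 0.171). Between medium and LPS arrays whose labels share a letter, *Socs6* was higher with LPS in 0 of 4 wt pairs. It was higher in 1 of 3 MK2-/- and 0 of 4 MK2/3-/- pairs, and the exact test does not use these pairs. The further probe of *Socs6* was dimmer, with 19 of 23 arrays well above background, and gave −1.10 in wt (adjusted p 0.0406), −0.74 in MK2-/- (0.221) and −0.76 in MK2/3-/- BMDM (0.143).

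**Figure D2:**
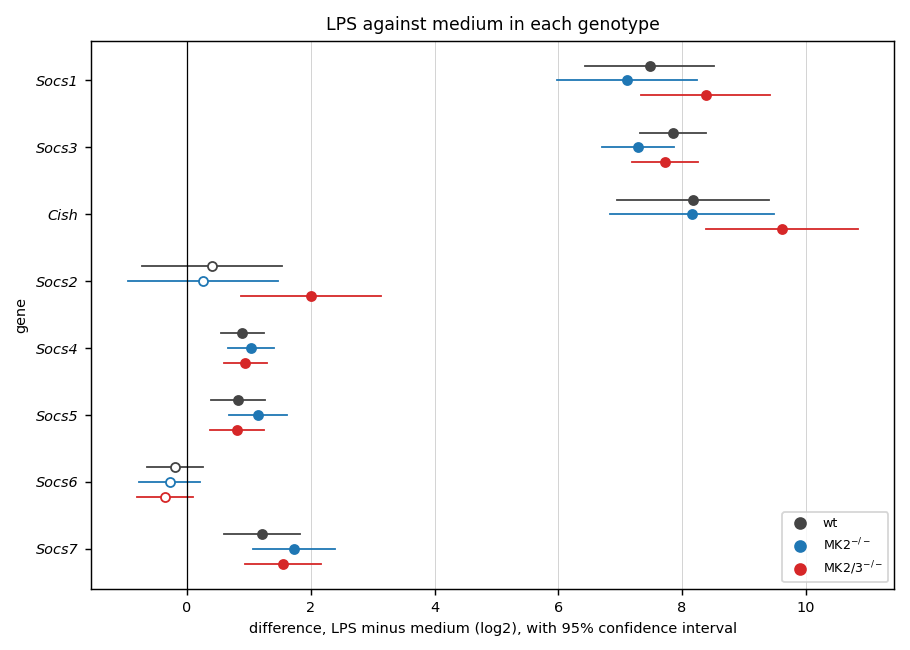
Difference in log2 signal between LPS and medium for each gene (from top to bottom) in wt, MK2-/- and MK2/3-/- BMDM (colours), with its 95% confidence interval from limma. Filled points passed an adjusted p of 0.05, which 6, 6 and 7 members did, and the axis separates the 3 genes above 7 from the rest.

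The next comparison asked whether the family members differ between genotypes after LPS. Between MK2-/- and wt BMDM 0 of 8 members differed at an adjusted p under 0.05 with limma, against 0.0308% of all genes, and 0 did at an unadjusted p under 0.05, against 7.50%. Between MK2/3-/- and wt BMDM 0 members differed, against 1.64% of all genes, and 2 did at an unadjusted p under 0.05, against 13.6%. Between MK2/3-/- and MK2-/- BMDM 0 differed, against 0.162% of all genes, and 2 did at an unadjusted p, against 7.91%. The share of 1.64% stood for 427 genes, against 6 genes with only the groups compared in the fit and 5 with the t-test. The t-test called 0 members at an adjusted p in all 3 comparisons, against 0.0115%, 0.0192% and 0.0115% of all genes, and 0, 0 and 1 at an unadjusted p, against 5.39%, 9.30% and 6.56% of all genes. The median absolute log2 difference over the members was 0.20, 0.26 and 0.30 in the 3 comparisons, beside 0.22, 0.26 and 0.21 over all genes. These comparisons share groups and are not independent of each other.

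*Socs1* had the largest of these differences after LPS. On 3 of 4 MK2/3-/- LPS arrays its signal lay above every wt and every MK2-/- LPS array, while MK2/3-/- array 4, at 13.31, lay within both groups. Among LPS arrays of the same number, that of MK2/3-/- BMDM had the highest *Socs1* signal each time, but the labels do not state that the number pairs arrays across genotypes. The log2 difference was 1.30 against wt BMDM, or 2.47-fold (95% confidence interval 0.26 to 2.35, unadjusted p 0.0168, adjusted p 0.234), and 1.44 against MK2-/- BMDM, or 2.71-fold (0.39 to 2.48, unadjusted p 0.00948, adjusted p 0.395). The exact permutation p, which does not pair arrays by number, was 0.0857 in both. Without MK2/3-/- LPS array 4 the differences were 1.75 and 1.89 (adjusted p 0.0596 and 0.107). With each array left out in turn they ran from 0.86 to 1.75 against wt and from 1.20 to 1.89 against MK2-/- BMDM. Over all settings tried the adjusted p ran from 0.0596 to 0.591 and from 0.107 to 0.718. *Socs1* differed between MK2-/- and wt BMDM after LPS by −0.13 (−1.17 to 0.91, adjusted p 0.985). The stromal marker *Col1a2* had a mean of 14.03 in wt BMDM after LPS and of 12.04 in both other genotypes, differences that did not pass (adjusted p 0.626 for MK2/3-/- and 0.794 for MK2-/- against wt BMDM). The dendritic cell marker *Itgax* had means of 11.82, 12.45 and 13.04 after LPS in the 3 genotypes, and the difference of 1.23 between MK2/3-/- and wt BMDM had an adjusted p of 0.303. *Zbtb46*, also listed as a dendritic cell marker, rose with LPS by 5.49, 5.40 and 5.77 in the 3 genotypes (adjusted p at most 1.42e-09). Its means after LPS were 10.14, 10.28 and 10.06 in wt, MK2-/- and MK2/3-/- BMDM. In the same order the dendritic cell marker *Flt3* had means of 5.63, 6.82 and 6.11, and *Siglech* had 5.04, 4.99 and 4.74. *Xcr1*, the last of these markers, had 2.59, 2.55 and 2.25 and was not well above background on any LPS array.

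*Socs2* differed between MK2/3-/- and MK2-/- BMDM after LPS by 1.32 (95% confidence interval 0.19 to 2.44, adjusted p 0.521, exact permutation p 0.114), with 2 of 4 arrays above all MK2-/- arrays. Its further probes gave 0.79 and 0.88 in this comparison. *Socs7* differed between MK2/3-/- and wt BMDM after LPS by 0.63 (0.02 to 1.25, unadjusted p 0.0451, adjusted p 0.354, exact permutation p 0.257), and the groups overlapped. *Socs3* differed by −0.16 between MK2-/- and wt BMDM (−0.70 to 0.37), by 0.24 between MK2/3-/- and wt (−0.29 to 0.78) and by 0.41 between MK2/3-/- and MK2-/- BMDM (−0.13 to 0.94). *Cish* differed by −0.17 (−1.40 to 1.05), −0.16 (−1.38 to 1.07) and 0.02 (−1.21 to 1.24) in the same order. The adjusted p values of *Socs3* and *Cish* in these comparisons were between 0.745 and 1.00. *Socs4*, *Socs5* and *Socs6* had differences between −0.32 and 0.43 in the 3 comparisons.

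**Figure D3:**
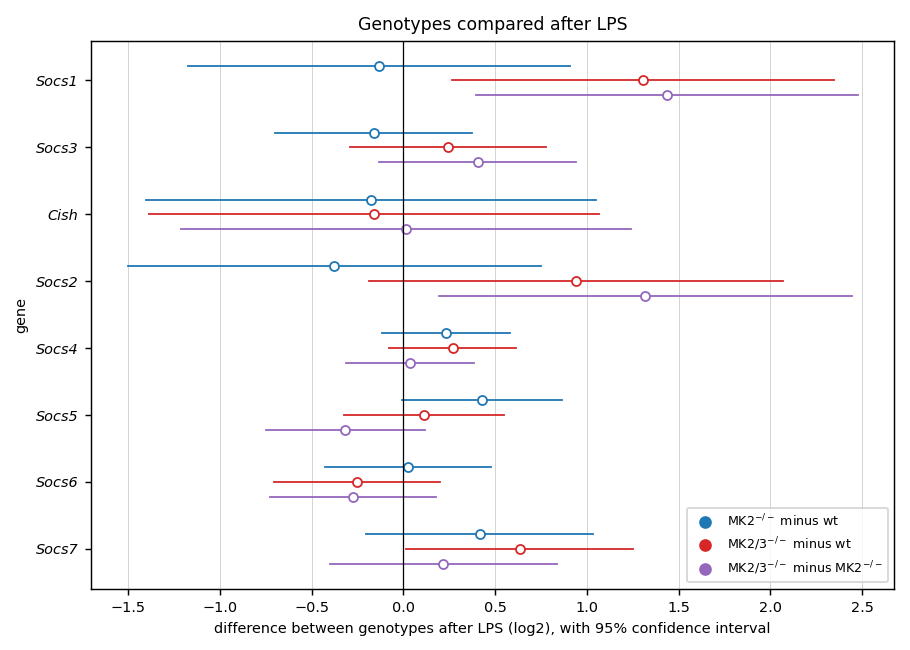
Difference in log2 signal between genotypes after LPS for each gene (from top to bottom) and pair of genotypes (colours), with its 95% confidence interval from limma. All points are open because 0 of 8 members passed an adjusted p of 0.05, and the intervals of *Socs1* against both other genotypes lie above 0 before adjustment.

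In medium, 0 of 8 members differed between MK2-/- and wt BMDM at an adjusted p under 0.05 with limma (0.00769% of all genes), between MK2/3-/- and wt BMDM (0.0769%) or between MK2/3-/- and MK2-/- BMDM (0.0462%). At an unadjusted p under 0.05 the counts were 0, 1 and 1, against 3.42%, 4.63% and 3.55% of all genes. The t-test called 0 at an adjusted p in each, against 0%, 0.00769% and 0% of all genes, and 0, 1 and 1 at an unadjusted p, against 5.46%, 4.90% and 4.29%. The member called by the t-test at an unadjusted p was *Socs7* in both comparisons, and *Cish* was not called by it. The member with the unadjusted difference by limma was *Cish*, at −1.60 between MK2/3-/- and wt BMDM (95% confidence interval −2.82 to −0.37, unadjusted p 0.0135, adjusted p 0.929, exact permutation p 0.0857) and −1.44 between MK2/3-/- and MK2-/- BMDM (−2.76 to −0.11, unadjusted p 0.0351, adjusted p 1.00, exact permutation p 0.171). The lowest *Cish* value, 2.47, came from MK2/3-/- medium array 1, the array with the fewest probes well above background. The difference from wt BMDM was −1.11 without that array, −1.32 without arrays 1 and 2, and −0.41 with normexp correction, and its adjusted p over all alternatives ran from 0.314 to 1.00. For *Socs7* the 4 MK2/3-/- medium arrays, 12.26 to 12.41, lay above all 4 wt arrays, which reached 12.15, and above all 3 MK2-/- arrays, which reached 12.21. The differences were 0.29 and 0.39, each with an exact permutation p of 0.0286 and an adjusted p of 1.00, within 72 exact tests over the 8 members and 9 comparisons.

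Whether the response to LPS itself differed between genotypes was tested with interaction terms. Between MK2-/- and wt BMDM 0 members had a different response at an adjusted p under 0.05 with limma (0.00385% of all genes) and 0 at an unadjusted p (1.91%). Between MK2/3-/- and wt BMDM 0 did (0.0115% of all genes), with 1 at an unadjusted p (4.54%), and between MK2/3-/- and MK2-/- BMDM 0 did (0% of all genes), with 1 at an unadjusted p (2.88%). The t-test was not run on interactions. The member at an unadjusted p was *Socs2*, with an interaction of 1.60 between MK2/3-/- and wt BMDM (95% confidence interval 0.00 to 3.19, unadjusted p 0.0494) and of 1.74 between MK2/3-/- and MK2-/- BMDM (0.09 to 3.40, unadjusted p 0.0402), both at an adjusted p of 1.00. The further probes of *Socs2* gave 0.92 and 0.74 against wt (unadjusted p 0.242 and 0.294) and 1.14 and 0.99 against MK2-/- BMDM (0.168 and 0.182). Over the alternatives the *Socs2* interactions ran from 0.63 to 2.00 and from 0.79 to 2.13, each lowest with normexp correction. The interaction was 0.90 for *Socs1* (−0.57 to 2.38) and 1.44 for *Cish* (−0.30 to 3.17) between MK2/3-/- and wt BMDM, and 1.27 (−0.26 to 2.80) and 1.45 (−0.35 to 3.26) between MK2/3-/- and MK2-/- BMDM, at adjusted p values of 1.00. Over the alternatives those against wt BMDM ran from 0.46 to 1.36 for *Socs1* and from 0.24 to 1.92 for *Cish*, and those against MK2-/- BMDM from 1.04 to 1.73 and from 0.32 to 2.09, with the lowest *Cish* values under normexp correction. For *Socs3* the 3 interactions were −0.56, −0.13 and 0.44, with intervals that included 0.

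Arrays of a group differed in the same direction for several members. The fourth LPS array was the lowest of its group for *Socs1*, *Socs7* and *Cish* in 3 of 3 genotypes, for *Socs2* and *Socs3* in 2 of 3, and for *Socs4*, *Socs5* and *Socs6* in 0 of 3. The same arrays were also low over the other genes called higher with LPS in their genotype. Their median deviation from the group mean was −0.27 over 2141 genes in wt BMDM, −0.14 over 2205 in MK2-/- and −0.27 over 3098 in MK2/3-/- BMDM, and they held the lowest value of the group for 54.5%, 45.6% and 56.8% of these genes. The gap of *Socs1* on MK2/3-/- LPS array 4 to the next array was 0.807 of the range of its group, and that of *Cish* on the same array was 0.811, both under the critical value of Dixon's test, which 0 of 40 groups of arrays passed.

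The summed signal of 4 stromal marker genes, among them *Col1a1* and *Col1a2*, differed between arrays of a group. On LPS arrays 1 to 4 it was 86,360, 3853, 18,676 and 34,757 in wt BMDM, 2503, 1452, 7386 and 31,869 in MK2-/- BMDM, and 856, 1838, 11,857 and 48,038 in MK2/3-/- BMDM. In medium it was 104,741, 4450, 19,604 and 35,573 in wt BMDM, 2317, 1225 and 34,199 in MK2-/- BMDM, and 520, 1898, 10,186 and 58,059 in MK2/3-/- BMDM. After LPS array 4 was the highest in MK2-/- and MK2/3-/- BMDM, where *Socs1* was lowest on it, while in wt BMDM array 1 was the highest and *Socs1* was lowest on array 4. Over the 12 LPS arrays, after subtraction of group means, log2 of this sum had a Pearson r of −0.697 with *Socs1*, −0.765 with *Socs3*, −0.787 with *Cish*, −0.875 with *Socs7*, −0.554 with *Socs2* and −0.247 with *Socs4*, and of 0.175 and 0.408 with *Socs5* and *Socs6*. Over all 23 arrays r was −0.624 with *Socs1*, −0.382 with *Socs3*, 0.0407 with *Cish*, −0.623 with *Socs7*, −0.141 with *Socs2*, −0.625 with *Socs4*, 0.111 with *Socs5* and 0.286 with *Socs6*. Of the 4 stromal marker genes *Col1a1* and *Col1a2* had the highest means in every group and so weigh most in their sum. *Dcn* was well above background on 16 of the 23 arrays and *Pdgfra* on 2. The sum of 5 dendritic cell marker genes, among them *Itgax*, was 4816, 9775, 3758 and 3171 on the wt LPS arrays, 5731, 10,612, 5640 and 7240 on those of MK2-/- and 13,089, 15,342, 6683 and 6538 on those of MK2/3-/- BMDM. Over the LPS arrays its r with *Socs1*, *Socs2*, *Socs3*, *Socs7* and *Cish* was 0.664, 0.696, 0.796, 0.793 and 0.649, and over all 23 arrays it was 0.706, 0.337, 0.595, 0.525 and −0.0619. With *Socs4*, *Socs5* and *Socs6* it was 0.299, −0.400 and −0.0982 over the LPS arrays and 0.527, −0.143 and −0.0987 over all. *Itgax* had the highest mean of the 5 dendritic cell marker genes in every group and so weighs most in this sum of linear signals. After LPS *Zbtb46*, *Siglech* and *Xcr1* had lower means in MK2/3-/- than in wt BMDM, and *Flt3* had a higher one. The sums and their r values are a description, and a share of other cells cannot be told apart from other differences between the arrays.

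Over the 23 arrays, which mix treated and untreated samples, the log2 signals of *Socs1* and *Socs3* had a Pearson r of 0.989, *Socs3* and *Cish* 0.979, and *Socs1* and *Cish* 0.965. These values are dominated by the step between medium and LPS. After subtraction of each group's mean, r was 0.743 for *Socs1* and *Socs3*, 0.690 for *Socs1* and *Socs7*, 0.602 for *Socs3* and *Socs7*, 0.465 for *Socs3* and *Cish*, and 0.378 for *Socs1* and *Cish*. *Socs5* and *Socs7*, both higher with LPS, had an r of −0.53 within groups, and *Socs4* and *Cish* one of −0.40. The arrays share slides and treatments, so these values are a description and no test is given.

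For each member the genes with the most similar signals over the 23 arrays were looked up among 15,680 genes that were well above background on all arrays of at least 1 group. For *Socs1* they were *Tiparp* (r = 0.995) and *Myd88* (0.992), along with a transcript that the reference table does not name. For *Socs3* they were *Tnfaip2* and *Nfkbia* (both 0.996) and an unnamed transcript, and for *Cish* they were *Rnd1* (0.984), *Rnf24* (0.983) and an unnamed transcript. *Socs7* was closest to *Serpina3f* (r = 0.978), *Ikzf1* (0.977) and *Sirt1* (0.976), *Socs4* to *Itgav* (0.960), an unnamed transcript and *Rlim* (0.953), and *Socs5* to *Tsc22d1* (0.920), *Foxn2* and *Stk35* (both 0.909). *Socs2* had no gene above *Cd164* (0.854), followed by *Ppa1* and *Cobll1*, and *Socs6* had *Vav1* (0.892), *Vav2* and *Arhgap27*. These r values mix medium and LPS arrays, and group means were not subtracted. For members that rose with LPS, a high r therefore largely reflects a shared step between medium and LPS. Genes well above background only on LPS arrays could also enter. The values are a description, and a closer link between these genes was not tested.

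In the RefSeq annotation of GRCm38.p6, *Cish* is the next protein-coding gene to *Mapkapk3*, with 1 pseudogene between them. *Mapkapk3* is the gene targeted in MK2/3-/- mice, so *Cish* was examined for differences that go with the targeted locus. After LPS *Cish* differed by −0.16 from wt and by 0.02 from MK2-/- BMDM, with adjusted p values of 0.957 and 1.00, while *Mapkapk3* differed by −3.30 and −3.27. In medium *Cish* differed by −1.60 and −1.44 (adjusted p 0.929 and 1.00) and *Mapkapk3* by −1.62 and −1.86 (5.73e-05 and 2.83e-05). *Hemk1*, the protein-coding gene on the other side of *Cish*, differed from wt and MK2-/- BMDM by 0.45 and 0.58 after LPS (adjusted p 0.104 and 0.102) and by 0.56 and 0.63 in medium (0.245 and 0.318). Of 58 measured genes within 1,000,000 bases of *Mapkapk3*, 3 were lower in MK2/3-/- than in wt BMDM after LPS and 2 in medium, *Mapkapk3* not counted, beside 226 and 13 of the 25,998 genes tested. Against MK2-/- BMDM 1 was lower under each treatment, beside 27 and 8 of all genes. Between MK2-/- and wt BMDM 0 of the 58 differed, and 0 were higher in any of these comparisons.

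Promoter windows from RefSeq (GRCm38.p6, from 250 bases before to 50 bases after the annotated start) were available for 4 of the 8 members, *Cish*, *Socs1*, *Socs3* and *Socs4*. They were searched on both strands for the STAT motif TTCNNNGAA, the IRF motif AANNGAAA and the NF-κB motif, which occur in 8.30%, 23.9% and 8.46% of the 32,851 windows of this length. The *Cish* window held 2 STAT matches, TTCCTGGAA at the start and TTCTTGGAA 11 bases after it, and 1 IRF match on the reverse strand. The *Socs1* window held 2 IRF matches, AAGAGAAA 81 bases and AACCGAAA 75 bases before the start, which overlap. The *Socs3* window held 1 STAT match, TTCTTAGAA, 154 bases before the start. This window belongs to the start of one annotated transcript, which lies inside the outermost 5′ end of the gene. No window held the NF-κB motif, and that of *Socs4* held none of the 3. The windows of the 3 genes with the largest LPS differences are shown, with the STAT and IRF matches in capitals, and a match is not evidence of binding.
Cish, chr9:107296409-107296708, + strand: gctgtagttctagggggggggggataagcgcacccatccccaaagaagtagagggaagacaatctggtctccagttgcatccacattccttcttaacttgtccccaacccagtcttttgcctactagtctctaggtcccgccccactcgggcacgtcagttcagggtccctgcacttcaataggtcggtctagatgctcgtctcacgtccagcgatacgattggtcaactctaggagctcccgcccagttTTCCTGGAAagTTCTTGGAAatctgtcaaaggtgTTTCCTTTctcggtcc
Socs1, chr16:10785487-10785786, - strand: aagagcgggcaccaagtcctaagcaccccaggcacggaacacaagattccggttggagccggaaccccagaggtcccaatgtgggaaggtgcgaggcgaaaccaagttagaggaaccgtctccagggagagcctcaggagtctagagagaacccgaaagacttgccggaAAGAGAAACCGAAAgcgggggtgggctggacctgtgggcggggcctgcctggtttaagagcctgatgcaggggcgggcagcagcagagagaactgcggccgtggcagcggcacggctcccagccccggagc
Socs3, chr11:117969317-117969616, - strand: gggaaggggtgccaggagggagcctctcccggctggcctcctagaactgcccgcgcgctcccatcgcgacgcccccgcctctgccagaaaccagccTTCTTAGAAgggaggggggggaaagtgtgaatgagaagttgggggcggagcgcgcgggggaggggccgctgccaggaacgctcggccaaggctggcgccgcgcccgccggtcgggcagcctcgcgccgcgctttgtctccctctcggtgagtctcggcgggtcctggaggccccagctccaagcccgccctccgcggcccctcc

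The genes around the family were taken from 10 lists of 168 genes, of which 164 were measured. With LPS 57 of these were higher and 14 lower in wt BMDM, 55 and 19 in MK2-/-, and 70 and 17 in MK2/3-/- BMDM. Over all genes 8.26%, 8.5% and 11.9% were higher and 8.89%, 10.1% and 13% lower, and the counts of single lists below stand beside these shares. Among 21 cytokines that signal through JAK and STAT proteins, 12, 10 and 11 were higher in wt, MK2-/- and MK2/3-/- BMDM, with medians of 2.50, 1.39 and 2.05, and 0 were lower. *Ifnb1*, which encodes interferon β, was at least 2730-, 773- and 1089-fold higher and *Csf2* at least 72.9-, 116- and 32.0-fold higher in the 3 genotypes (adjusted p at most 7.44e-09), and *Il6* rose by 11.67, 11.46 and 11.20. The folds of *Ifnb1* and *Csf2* are lower limits because the medium arrays were not well above background, except 1 MK2/3-/- array for *Ifnb1*, and each compares the mean after LPS with medium arrays raised to the lowest signal well above background on each. *Osm* rose by 1.53 in MK2/3-/- BMDM (adjusted p 0.000278) and differed by 0.68 in wt (0.105) and 0.36 in MK2-/- BMDM (0.481), and its difference in wt was 1.00 (0.00431) without LPS array 1, in a range of adjusted p from 0.00431 to 0.326 over the alternatives. The interaction of *Osm* between MK2/3-/- and MK2-/- BMDM was 1.17 with an adjusted p of 1.00.

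Of 11 JAK and STAT genes, 2, 3 and 8 were higher with LPS in wt, MK2-/- and MK2/3-/- BMDM and 0 were lower. *Jak2* rose by 3.55, 3.60 and 3.61 and *Stat5a* by 2.81, 2.98 and 3.43, with adjusted p values of at most 0.000184. *Stat3* rose by 1.42 in MK2/3-/- BMDM (adjusted p 0.00673), with an adjusted p of 0.0765 by the t-test and a range from 0.000224 to 0.0765 over the alternatives. In wt and MK2-/- BMDM *Stat3* differed by 0.87 and 0.80 (adjusted p 0.126 and 0.193). Without wt LPS array 4 the wt difference was 1.25 (0.0116), and its adjusted p over the alternatives reached 0.362. The interactions of *Stat3* had adjusted p values of 1.00. *Stat5b* differed by 0.10, 0.07 and 0.24, not past the threshold. Of 31 receptor genes 5 were higher and 3 lower in wt, 5 and 6 in MK2-/-, and 8 and 5 in MK2/3-/- BMDM, with *Il15ra* up by 3.24, 3.50 and 3.14.

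Of 18 STAT3 target genes 15, 13 and 14 were higher with LPS, with 1 lower in each genotype, and of 11 STAT5 targets 4, 5 and 6 were higher, with 1 lower in MK2-/- BMDM. Their median log2 differences were 2.34, 2.09 and 1.90 for STAT3 and 0.69, 0.74 and 1.53 for STAT5 targets. *Pim1*, a target of STAT3 and STAT5, rose by 5.21, 5.09 and 4.81.

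Of 12 other inhibitors of the pathway 3 were higher and 2 lower in wt, 4 and 3 in MK2-/-, and 6 and 2 in MK2/3-/- BMDM. *Usp18*, which restrains the interferon receptor, rose by 4.06, 4.39 and 4.68, and *Ptpn2*, a phosphatase of JAK and STAT proteins, by 2.80, 2.82 and 3.12. *Pias1* rose by 0.76 in MK2/3-/- BMDM (adjusted p 0.00051), with 0.42 in wt (0.0524) and 0.51 in MK2-/- BMDM (0.0272), and its adjusted p in MK2-/- BMDM was over 0.05 without 5 of the 7 arrays left out in turn and ran from 0.00893 to 0.552 over all alternatives. *Ptpn6* differed by −0.31, −0.52 and −0.27 (adjusted p 0.239, 0.047 and 0.271), with an adjusted p over 0.05 in MK2-/- BMDM without 6 of the 7 arrays and in a range from 0.0204 to 0.677. With scaling to the 75th percentile the *Ptpn6* differences in wt and MK2/3-/- BMDM were 0.06 and 0.14. Among 28 other SOCS box genes 2 were higher and 7 lower in wt, 3 and 8 in MK2-/-, and 3 and 7 in MK2/3-/- BMDM, and *Rab40c* and *Spsb2* fell by 2.72 and 2.07 in wt, 3.19 and 2.55 in MK2-/- and 3.52 and 3.03 in MK2/3-/- BMDM. Of 9 genes of the ligase that the SOCS box recruits 6 were measured, of which 2 were higher and 1 lower in wt, 1 and 0 in MK2-/-, and 1 and 2 in MK2/3-/- BMDM, and of 14 genes of SOCS substrates 5, 4 and 6 were higher and 0 lower, among them *Rela*, up by 1.42, 1.46 and 1.65.

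Between MK2/3-/- and wt BMDM after LPS 5 of 164 list genes were higher and 2 lower, against 1.64% of all genes in both directions together. At an unadjusted p under 0.05 with limma 35 list genes differed, against 13.6% of all genes. *Il10* was lower by 3.22 (adjusted p 0.00158), its receptor gene *Il10ra* was higher by 0.98 (0.00821) and *Ccnd3* was higher by 0.74 (0.00924), and all 3 passed when any of the 8 arrays was left out. *Irf8*, *Nfil3*, *Hamp* and *Il2* had adjusted p values over 0.05 without 5, 5, 4 and 4 of the 8 arrays, up to 0.121, 0.139, 0.0734 and 0.077. With the t-test, or with only the groups compared in the fit, 0 list genes passed. Between MK2-/- and wt BMDM and between MK2/3-/- and MK2-/- BMDM after LPS 0 list genes passed with limma, with 13 and 16 at an unadjusted p under 0.05, against 7.50% and 7.91% of all genes, and 10 and 12 by the t-test, against 5.39% and 6.56%. In medium 0 passed in each comparison, with 3, 7 and 5 at an unadjusted p, against 3.42%, 4.63% and 3.55% of all genes, and 5, 13 and 10 by the t-test, against 5.46%, 4.90% and 4.29%. Interactions passed for 0, with 3, 15 and 9 at an unadjusted p, against 1.91%, 4.54% and 2.88% of all genes.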

How the data were processed

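The deposited scanner files hold a linear spot intensity made by the authors with Agilent Feature Extraction 11.0.1.1. Per the file headers it is background-subtracted and corrected for gradients within an array but not normalized between arrays. The table deposited by the authors holds log2 values, quantile normalized and centred on each probe's median, with medians per array from −0.0195 to 0.0239. Recomputed that way, the intensities had r = 0.999942 with it. Spots with a flag were set to missing, controls were dropped, and signals were log2 transformed, averaged per probe and quantile normalized over 23 arrays. Probes with RefSeq or GenBank accessions were kept (32,869 probes), and those known only by consensus cluster numbers were left out. RefSeq accessions were named with the table of GRCm38.p6, and the array design is annotated on another build. The analysis used R 4.3.3, limma 3.58.1 and the data.table package (1.17.8), and figures Python 3.11.15 with matplotlib 3.10.9. limma fitted 6 groups with p adjusted over 25,998 genes by Benjamini and Hochberg at 0.05. Genes named are the members, *Mapkapk2* and *Mapkapk3*, up to 4 per list and comparison among those past the threshold, 12 fixed pathway genes, the 3 genes most like each member, and the neighbours of *Mapkapk3*. The members and lists were chosen with earlier results of these data known. A setting, which leaves out arrays 1 and 2 of MK2/3-/- BMDM in medium, was added after the data were seen. Results for some listed genes are not reported here.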

Additional observations from a re-analysis of the deposited data

How the results depend on the processing

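Counts and differences were recomputed under up to 12 other settings and without each array in turn; 1 setting, without arrays 1 and 2 of MK2/3-/- BMDM in medium, was added after the data were seen. The counts of members stayed within a factor of 1.5 in all 134 and 115 recomputations, the lowest being 4 for 6 in wt BMDM with the t-test. For 42 of the 96 member differences, chosen among those the text describes, 467 of 474 values kept direction and side of the threshold under other settings and 362 of 363 without an array. Over all 96, 32 had recomputed values of both signs, 0 of them past the threshold in any setting; for example *Socs1* between MK2-/- and wt BMDM after LPS ran from −0.577 to 0.154, *Cish* between MK2/3-/- and wt BMDM from −0.412 to 0.327 and the *Socs3* interaction of MK2/3-/- with wt BMDM from −0.304 to 0.148. For the other named genes 1056 of 1108 values kept direction and side of the threshold under other settings, and 711 of 754 did so without an array. The LPS difference of *Socs2* in MK2-/- BMDM was −0.0636 with the probe of highest mean signal and ran from −0.134 to 0.459 without an array. That of *Stat5b* was −0.0143 in MK2-/- BMDM with that probe, and without an array ran from −0.0205 to 0.167 there and from −0.0360 to 0.194 in wt BMDM. That of *Ptpn6* was 0.0571 in wt and 0.137 in MK2/3-/- BMDM with scaling to the 75th percentile. List genes past the threshold numbered 0 of 7 between MK2/3-/- and wt BMDM after LPS with the t-test and 0 with only the groups compared, and 3 to 10 without an array. With normexp correction 1 passed between MK2/3-/- and MK2-/- BMDM after LPS and 1 in the interaction of MK2/3-/- with wt BMDM. Without an array the counts ran from 0 to 3 between MK2/3-/- and MK2-/- BMDM, from 0 to 1 between MK2-/- and wt BMDM, and from 0 to 2 in that interaction.

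Arrays whose labels share a letter were also fitted as a replicate block, with a consensus correlation of 0.241. Of 96 member differences 0 changed sides of the threshold; *Socs2* in MK2/3-/- BMDM had an adjusted p of 0.00245, and 1 list gene passed in the interaction of MK2/3-/- with wt BMDM. Over 11 same-letter pairs of medium and LPS arrays the r of deviations from the group means was 0.0665 to 0.566 (median 0.257), and the median over 33 other pairs was −0.0802.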
